A study of Mus musculus with 5 samples.

Results

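The genes examined were 9 adhesion genes of lymphocytes, namely the integrin subunits Itgal, Itgam, Itga4, Itgb1, Itgb2 and Itgb7, the hyaluronan receptor Cd44, the selectin ligand Selplg and the homophilic adhesion molecule Pecam1. They were taken by name as every probe set of the array whose platform symbol was one of the 9, which gave 22 of 45101 probe sets, none of them shared with another gene. The arrays were hybridized with RNA from germinal centre B cells, obtained by flow sorting of splenic mononuclear cells of C57BL/6 littermates aged 12 weeks 7 days after they were immunized with sheep red blood cells (SRBC). All mice carried Cg1-Cre, which recombines in B cells that transcribe the gamma1 constant region. The 3 WT arrays came from mice with Cg1-Cre alone (eGFP-negative cells), and the 2 REL arrays from mice that also had a floxed Rel gene, which encodes c-Rel of the NF-kB family (relfl/flCg1-Cre, eGFP-positive cells). The eGFP gate therefore differed between the groups along with the genotype. Whether each array was a separate mouse is not in the labels, and p-values therefore measure a spread between samples that may be technical.

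Integrins are pairs of one alpha and one beta chain that bind ligands on other cells or in the matrix once signals inside the cell have switched them to an active shape. On B cells, LFA-1 (Itgal with Itgb2) binds Icam1, and VLA-4 (Itga4 with Itgb1) binds Vcam1 and fibronectin. Both hold germinal centre B cells to follicular dendritic cells and helper T cells. Itga4 with Itgb7 binds Madcam1 in gut vessels, and Mac-1 (Itgam with Itgb2) is chiefly an integrin of myeloid cells. Cd44 binds hyaluronan and is a marker of activated lymphocytes, Selplg encodes PSGL-1, the ligand of P-selectin, and Pecam1 encodes CD31 of endothelial cells, platelets and many leukocytes.

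Rel, the floxed gene, had signals of 492, 134 and 206 in WT, against 18.6 and 85.2 in REL. The REL values were under all 3 WT values (−2.12, SE 0.73, limma adjusted p = 0.46), and whether its 1 probe set falls in the deleted part is not in the labels. The B cell identity of the sort was measured by 10 markers with a named probe set, whose summed signal was 64444 to 79112 in WT, against 65369 and 72445 in REL. Cd79a, a chain of the B cell receptor, ran from 7435 to 8508 in WT and was 7971 and 9040 in REL, and Bcl6, the germinal centre transcription factor, ran from 7619 to 10515 in WT and was 9384 and 8731 in REL. The 2 probe sets of Bcl6 had differences of opposite sign. Of the 10 markers 7 had a difference below 0, and Rgs13, a regulator of G protein signalling in germinal centre B cells, was under all WT values on both REL arrays, at 4960.0, 6058 and 6022 in WT, against 4514 and 3321 in REL (−0.54, SE 0.19, 95% interval −0.98 to −0.11, limma adjusted p = 0.483). Markers of macrophages and monocytes did not stay level, since their summed signal was 1432 to 2492 in WT, against 8447 and 6999 in REL. The scaling put the 2% trimmed mean of each array at 500, and medians were 40.7 to 54.6 in WT, against 48.1 and 30.1 in REL.

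The tests, which were two-sided, compared REL with WT in limma across 12082 genes, each taken at its brightest probe set on the log2(signal + 16) scale, on which the change of dim genes is understated. Of the 9 genes 8 could be tested, and Itgam could not, because its mean level corresponded to a signal of 21.5, under the 23.1 below which the dimmest 40% of probe sets were left out. None of the 8 was called at a limma adjusted p under 0.05, and 1 (Cd44) had an unadjusted p under 0.05. Over all genes the called share was 0.00828% higher in REL (1 gene, Vcam1) and 0% lower, and unadjusted p was under 0.05 for 3.24% higher and 4.99% lower. The 2 REL arrays lay above all 3 WT arrays in 3 of the 8 genes, where 9.53% of all genes did so. These 3 were Cd44, Selplg and Pecam1. They lay below all WT arrays in 1 gene, Itgb2, where 14.3% of all genes did so. With REL 1 or REL 2 left out, 4 genes lay above in each case (24.6% and 26.5% of all genes) and 3 and 2 below (34.7% and 31.2%). With WT 1, 2 or 3 left out 3 genes lay above each time (14%, 13.7% and 15.2%) and 1, 2 and 1 below (23.9%, 20.5% and 17.8%). Of the 8 genes 5 had a difference above 0 and 3 below, against 43.2% and 56.8% of all genes. The median difference of the 8 was 0.22, against −0.07 over all genes, and it ranged from −0.49 (Itga4) to 1.25 (Pecam1). When the arrays were centred on their medians these 2 medians were 0.39 and 0.10.

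Promoters of 5 of the 9 genes (Itga4, Itgam, Itgb1, Itgb7 and Cd44) matched RefSeq's table for the GRCm38.p6 build, each from 250 bases before to 50 after the transcript start. The NF-kB consensus, searched on both strands, was in 4.51% of 32851 promoters and in 0 of these 5. A shorter kB-like pattern, GGGNNTTCC, was in 5.82% of all promoters and in 1 of the 5, that of Itgb1. GAGGAA, a core of sites for the myeloid and B cell factor PU.1, was in 28.3% of all promoters and in 4 of the 5. The promoters of Cd44, the member with the smallest p, and of Itgb1, the one with the kB-like pattern, are given 5′ to 3′, with matches to these patterns on either strand in capitals. The Cd44 window is chr2:102901616-102901915 on the minus strand, and the Itgb1 window is chr8:128685404-128685703 on the plus strand.
Cd44: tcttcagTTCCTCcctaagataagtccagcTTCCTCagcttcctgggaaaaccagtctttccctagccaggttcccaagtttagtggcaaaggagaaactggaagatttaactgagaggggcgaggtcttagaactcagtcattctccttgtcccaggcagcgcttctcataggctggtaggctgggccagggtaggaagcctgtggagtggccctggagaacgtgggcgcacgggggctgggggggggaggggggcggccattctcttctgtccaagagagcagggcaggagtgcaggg
Itgb1: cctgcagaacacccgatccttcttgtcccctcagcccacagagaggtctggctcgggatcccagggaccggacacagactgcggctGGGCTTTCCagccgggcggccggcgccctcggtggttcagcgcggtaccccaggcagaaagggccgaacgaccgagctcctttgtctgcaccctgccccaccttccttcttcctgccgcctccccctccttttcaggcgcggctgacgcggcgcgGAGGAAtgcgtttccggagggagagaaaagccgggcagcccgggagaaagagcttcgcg
The Cd44 window holds 2 matches to GAGGAA, both on the opposite strand, and 0 to the kB-like pattern. The Itgb1 window holds 1 match to each. A match is a run of letters and not a measured binding site, and the arrays do not read these windows.

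**Figure D1:**
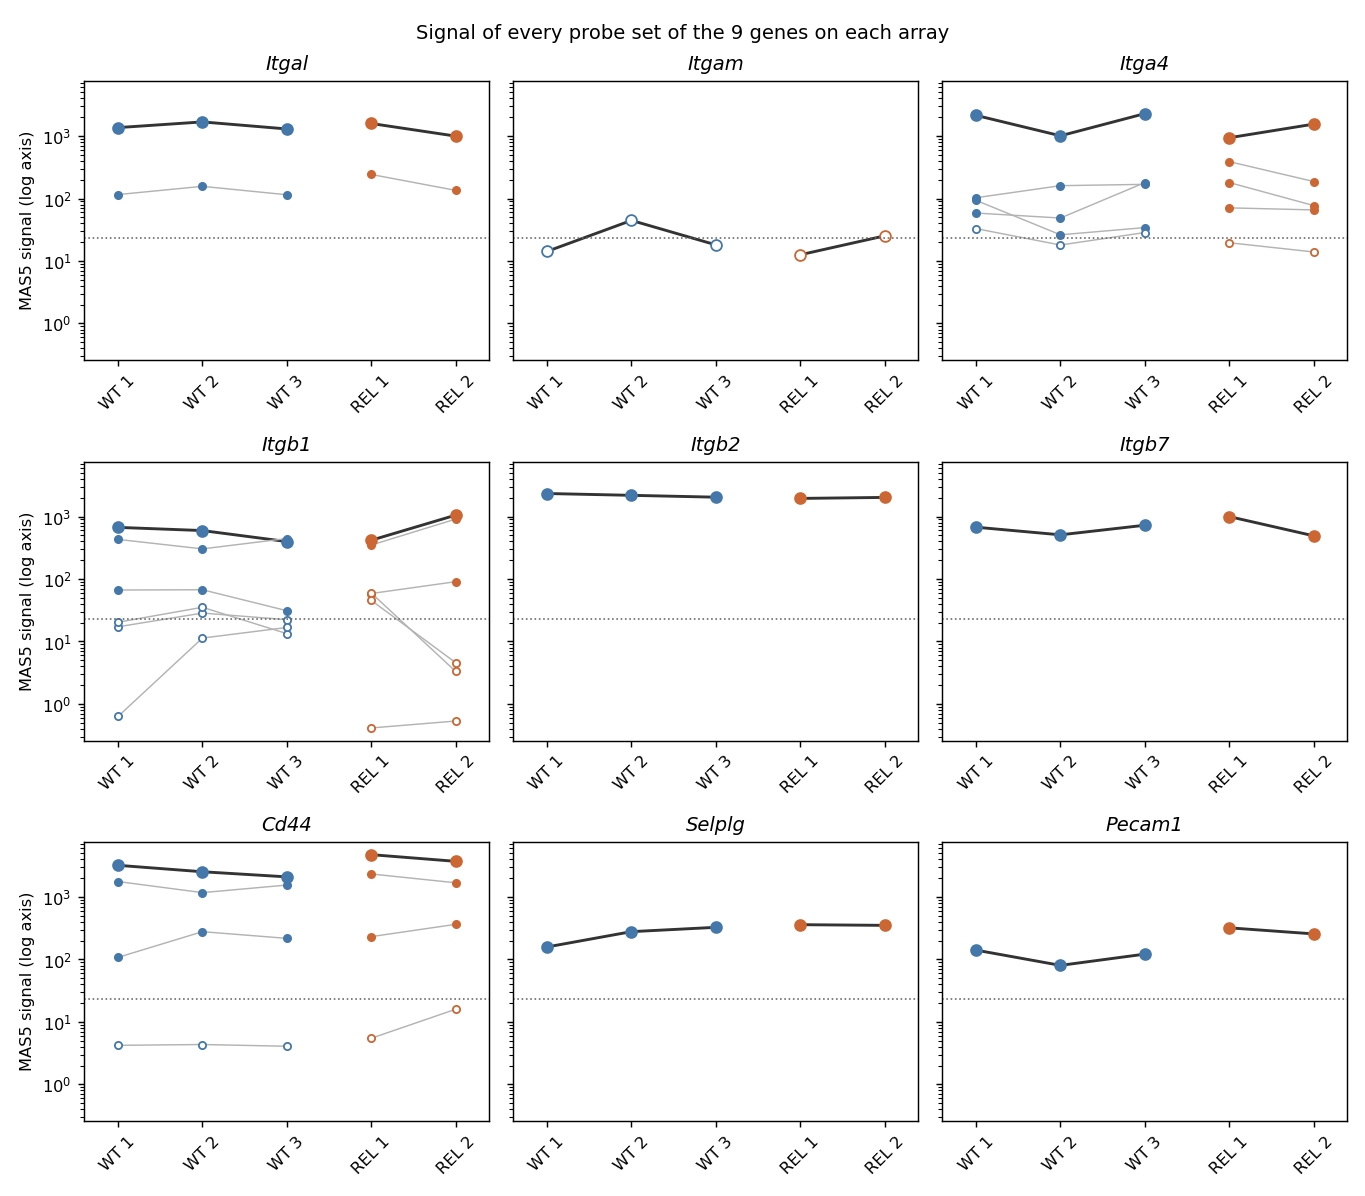
MAS5 signal (log axis) of each of the 22 probe sets on the 3 WT (blue) and 2 REL (orange) arrays, 1 panel per gene, with thin lines joining the values of 1 probe set, the thick line marking the brightest, open points the 6 probe sets under the filter and the dotted line a signal of 23.1. The upper Cd44 series and the Selplg and Pecam1 points are higher on both REL arrays than on every WT array, while the lines of Itga4 and Itgb1 do not run in parallel.

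Cd44, on mouse chromosome 2 (102811141 to 102901669 in GRCm38.p6), had 4 probe sets, and none had a REL mean below its WT mean. The brightest (1423760_at) had signals of 3215, 2536 and 2101 in WT, against 4764 and 3725 in REL. Both REL arrays lay above the highest WT array, and REL 1 was the highest of the 5. The difference was 0.70 on the log2(signal + 16) scale (SE 0.24, 95% interval 0.18 to 1.23, limma adjusted p = 0.458), from means of 11.34 ± 0.31 (SD, n = 3) in WT and 12.05 ± 0.25 (SD, n = 2) in REL. The second probe set (1434376_at) read 1768, 1175 and 1553 in WT, against 2338 and 1689 in REL, and its groups overlapped, since REL 2 lay under WT 1. The third (1452483_a_at) read 108, 279 and 218 in WT, against 232 and 365 in REL, with REL 1 inside the WT range. Their differences were 0.42 (SE 0.29) and 0.59 (SE 0.59). The fourth (1443265_at) was under the filter, at 4.08 to 4.35 in WT, against 5.47 and 16 in REL. Of the 9 genes Cd44 was thus the one with several probe sets past the filter whose REL arrays were both above the WT mean in each of them, along with a 95% interval above 0 at the brightest. The 5 genes with 1 probe set, Pecam1 and Selplg among them, could not meet this condition.

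Pecam1, on chromosome 11 (106654213 to 106715281), had 1 probe set and the largest difference of the 8 genes tested. Its signals were 141, 80.4 and 122 in WT, against 321 and 257 in REL. The lower REL array stood above the highest WT array, and the difference was 1.25 (SE 0.56, 95% interval −0.00 to 2.50, limma adjusted p = 0.608), from 7.00 ± 0.36 (SD, n = 3) to 8.24 ± 0.22 (SD, n = 2). CD31 marks endothelial cells and platelets as well as leukocytes, so their markers were read on the same arrays. The 11 endothelial markers summed to 199 to 285 in WT, against 289 and 203 in REL, and the 7 platelet and megakaryocyte markers to 120 to 240 in WT, against 258 and 95 in REL. In the endothelial list 1 REL array lay just above the WT sums and 1 within them, and in the platelet list 1 lay above and 1 below. Cdh5, the cadherin of endothelial junctions, was at 17.0 to 33.1 in WT, against 32.7 and 20.0 in REL, close to the level of dim probe sets. Kdr, Tek, Emcn and Plvap were under that level on all 5 arrays, and so were the platelet genes Gp5 and Gp6. Cldn5, under the filter, was the 1 endothelial marker of the 11 with both REL arrays above every WT array, where 9.53% of all genes tested did so. It read 4.74, 7.88 and 19.2 in WT, against 22.6 and 24.1 in REL. Egfl7 (98.8 to 121 in WT, 118 and 91.5 in REL) and Stab2 (33.9 to 39.0 in WT, 35.8 and 27.7 in REL) overlapped. Pf4, platelet factor 4, was at 22.1 to 54.0 in WT and at 140.2 and 14.8 on REL 1 and REL 2. Ppbp, a further platelet marker, lay below every WT array on both REL arrays, as did 14.3% of all genes tested. It read 55.0, 20.9 and 97.0 in WT, against 18.7 and 5.12 in REL (−1.30, SE 0.58).

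Selplg, on chromosome 5 (113817798 to 113832528), also had 1 probe set, and its groups were separated by a narrow gap. It read 159, 279 and 327 in WT, against 360 and 352 in REL. The REL arrays were nearly equal and just above WT 3, while WT 1 stood well below the rest. The difference was 0.51 (SE 0.53, 95% interval −0.67 to 1.70, limma adjusted p = 0.862), and it was 0.23 without WT 1. With quantile normalization the groups overlapped.

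Marker sums of some other cell types were also higher on both REL arrays, and those of others overlapped or were lower. In a bulk sample more cells of a type and more RNA per cell cannot be told apart. Of 18 macrophage and monocyte markers 13 were higher on both REL arrays than on every WT array and 1 was lower. Of the 13 past the filter 11 were higher and 1 was lower, where 9.53% of all genes tested were higher and 14.3% lower. The lower one was Adgre1, which encodes the macrophage antigen F4/80, at 154, 435 and 161 in WT, against 120 and 116 in REL (−0.83, SE 0.63). Csf1r, the receptor of the growth factor M-CSF, was at 23.6, 8.18 and 33.1 in WT, against 565 and 528 in REL, and C1qb, a chain of complement C1q, at 26.2, 27.0 and 3.91 in WT, against 531 and 786 in REL. Lyz2 was at 71.0, 321 and 10.8 in WT, against 1318 and 442 in REL. The 7 dendritic cell markers summed to 1058 to 1281 in WT, against 1391 and 2001 in REL. Flt3 was the 1 marker of the 7 with both REL arrays above every WT array, where 9.53% of all genes tested did so. It read 395 to 649 in WT, against 776 and 1286 in REL. Zbtb46 had a difference below 0 with overlapping groups, at 66.2 to 190 in WT, against 18.6 and 113 in REL (−0.95, SE 0.71). The 7 natural killer cell markers summed to 275 to 458 in WT, against 599 and 648 in REL. Of the 7, 1 (Prf1) was higher on both REL arrays than on every WT array, where 9.53% of all genes tested were. Lower on both were 2 (Nkg7 and Klre1), each under the filter, where 14.3% of all genes tested were lower. Prf1 read 411, 175 and 227 in WT, against 555 and 616 in REL, and its 2 probe sets had differences of opposite sign. Ncr1, a defining receptor of these cells, was at most 6.49. T cell markers summed to 348 to 696 in WT, against 1023 and 362 in REL, with Cd3e under the filter. The largest part of the REL 1 sum was Cd247, at 307, 16.3 and 95.3 in WT, against 630 and 168 in REL. Of 5 tested T cell markers 2 had a difference above 0 and 3 below, all with overlapping groups. Neutrophil markers summed to 200 to 1368 in WT, against 421 and 132 in REL, with S100a8 at 41.6 to 301 and at 55.9 and 17.8. Erythroid markers summed to 196 to 618 in WT, against 127 and 59 in REL. Plasma cell markers summed to 25734 to 30693 in WT, against 24988 and 28341 in REL, but not all of them stayed level. Sdc1 read 455, 125 and 164 in WT, against 42.6 and 42.4 in REL (−1.96, SE 0.66), with 1 tested probe set above 0 and 2 below. Xbp1 was above every WT array on both REL arrays (0.49, SE 0.23). The part of any of these cells in the Cd44, Selplg and Pecam1 signals was not tested.

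**Figure D2:**
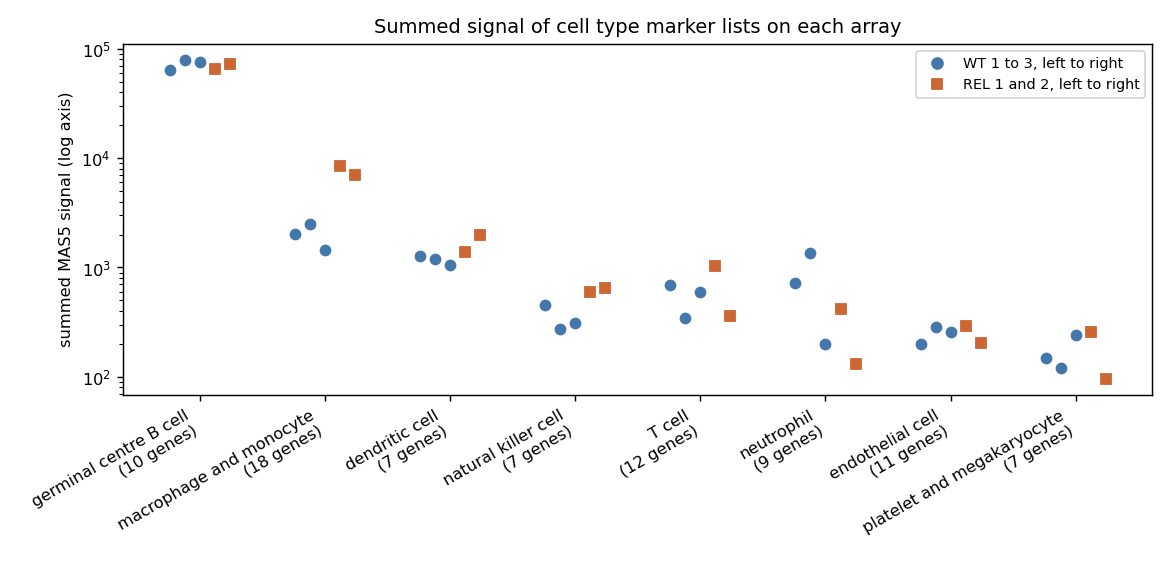
Summed MAS5 signal (log axis) of marker lists of 8 cell types on the 3 WT (circles) and 2 REL (squares) arrays, with the number of genes that have a named probe set under each list. The macrophage and monocyte sums are 1432 to 2492 in WT, against 8447 and 6999 in REL, while the B cell and endothelial sums of the 2 groups overlap.

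The chains of LFA-1 and Mac-1 gave small differences at their brightest probe sets. Itgb2, the beta chain shared by both, on chromosome 10 (77530329 to 77565708), read 2337, 2185 and 2041 in WT, against 1950.0 and 2024 in REL. The REL values were both under the lowest WT value, by a small gap. The difference was −0.14 (SE 0.22, 95% interval −0.63 to 0.36, limma adjusted p = 0.927), and it turned to 0.03 with the arrays centred on their medians, so no direction can be given. Across the 5 arrays the highest Itgb2 signal was 1.2 times the lowest, less than for any other of the 8 tested genes, which ran from 1.69 times (Itgal) to 3.99 times (Pecam1).

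Itgal, the alpha chain of LFA-1 on chromosome 7 (127296139 to 127335137), had 2 probe sets whose REL means stood on opposite sides of WT. The brightest (1435560_at) read 1366, 1685 and 1299.8 in WT, against 1589.9 and 999 in REL. REL 1 lay inside the WT range and REL 2 below it, a difference of −0.19 (SE 0.31, 95% interval −0.88 to 0.49, limma adjusted p = 0.927), which was 0.14 without REL 2. The dimmer one (1425367_at) read 116, 157 and 115 in WT, against 243 and 135 in REL, a difference of 0.46 (SE 0.58), with REL 2 inside the WT range.

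Itgam, the alpha chain of Mac-1, on the same chromosome (128062640 to 128118491), was dim on all arrays. Its 1 probe set read 14.2, 44.6 and 18.1 in WT, against 12.6 and 25.3 in REL, and 3 of the 5 values were under 23.1. The groups overlapped, with the highest value on WT 2 and the lowest on REL 1.

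The probe sets of Itga4, the alpha chain of VLA-4 on chromosome 2 (79255426 to 79333114), disagreed with each other. The brightest (1436037_at) read 2145, 1009.8 and 2289 in WT, against 940.1 and 1553 in REL. WT 2 and REL 1 were low together and the groups overlapped, with a difference of −0.49 (SE 0.40, 95% interval −1.38 to 0.39, limma adjusted p = 0.807). A second probe set (1450155_at) read 103, 161 and 169 in WT, against 390 and 187 in REL, both REL arrays above every WT array, a difference of 0.87 (SE 0.59). The third (1456498_at) read 93.4, 26.3 and 34.3 in WT, against 180.3 and 77.2 in REL, a difference of 1.14 (SE 0.67) with REL 2 under WT 1. The fourth (1421194_at) read 58.6, 48.7 and 180.0 in WT, against 70.9 and 65.7 in REL, a difference of −0.22 (SE 0.66) that was 0.28 without WT 3. The fifth (1427615_at) was under the filter, at 18.0 to 33.0 in WT, against 19.6 and 14.0 in REL. With the 4 tested probe sets averaged, Itga4 stood at 0.32 in place of −0.49, so its direction depended on which probe sets were read.

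Itgb1, the beta chain of VLA-4 on chromosome 8 (128685654 to 128733579), had its 2 REL arrays far apart. Its brightest probe set (1426918_at) read 671, 596 and 397 in WT, against 417 and 1053 in REL. REL 1 lay inside the WT range and REL 2 above it, and the difference was 0.29 (SE 0.49, 95% interval −0.81 to 1.38, limma adjusted p = 0.928). The next (1452545_a_at) read 431, 303 and 445 in WT, against 349 and 909 in REL. The third (1427771_x_at) read 66.6, 67.3 and 31.1 in WT, against 58.5 and 90.6 in REL. In each of these 3 probe sets REL 2 was the highest of the 5 arrays and REL 1 lay inside the WT range. Their differences were 0.29, 0.53 and 0.38, and without REL 2 they were −0.37, −0.14 and 0.12. The 3 probe sets under the filter did not show REL 2 high, since 1426919_at, 1426920_x_at and 1438119_at read 3.32, 4.58 and 0.532 on that array.

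Itgb7, the other partner of Itga4, on chromosome 15 (102215994 to 102233405), had the 2 REL arrays at opposite ends. It read 675, 510 and 726 in WT, against 998 and 491 in REL, so REL 1 was the highest and REL 2 the lowest of all arrays. The difference was 0.15 (SE 0.43, 95% interval −0.81 to 1.11, limma adjusted p = 0.962), and it was −0.35 without REL 1 and 0.65 without REL 2.

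**Figure D3:**
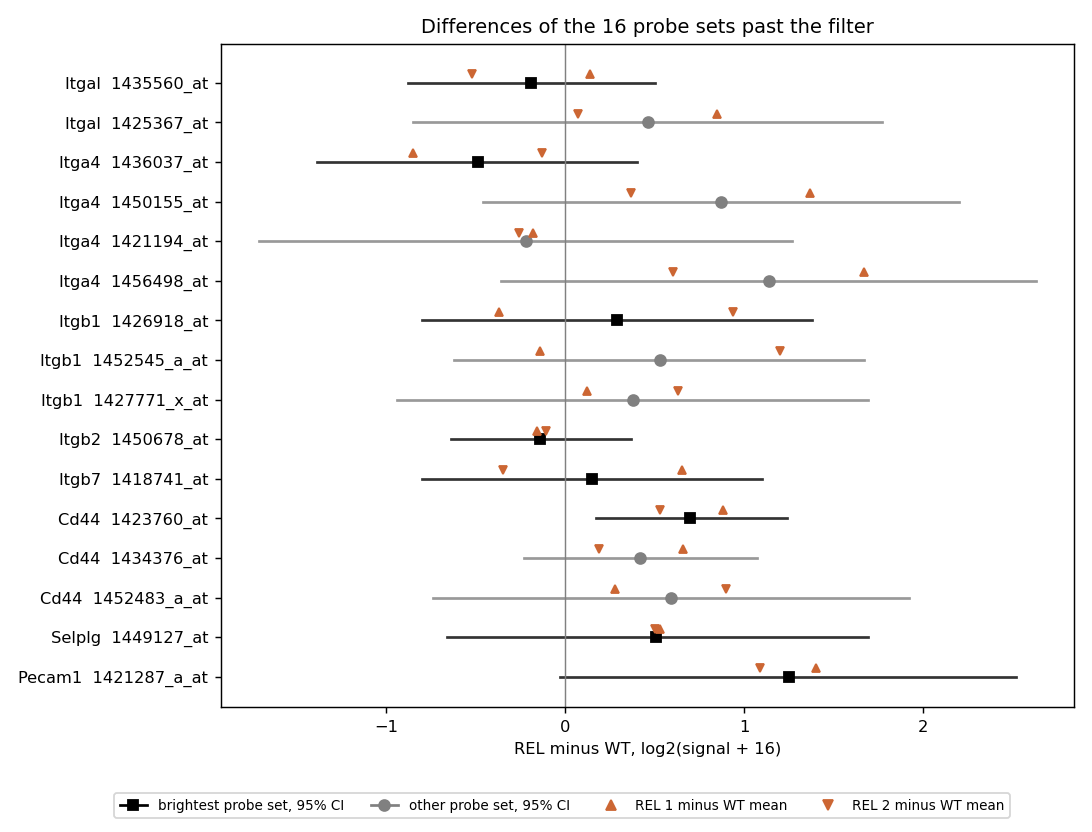
REL minus WT differences (log2(signal + 16)) of the 16 probe sets past the filter, from the limma fit over 22200 probe sets, with 95% intervals. Squares mark the brightest probe set of a gene, circles the others, and triangles each REL array minus the WT mean. The interval of 1 probe set (Cd44, 1423760_at) lies wholly above 0, and the REL arrays of Itgb1 and Itgb7 lie far apart.

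Counted as probe sets, 16 of the 22 passed the filter, 12 with a difference above 0 and 4 below, where 45.6% of 22200 probe sets were above 0 and 54.4% below. Their median was 0.44, against −0.05 over all. Both REL arrays were above every WT array in 4 (10.4% of all probe sets) and below in 1 (13.5%). None was called in the limma fit over all probe sets, which called 0% in each direction; 1 member probe set, against 3.65% of all probe sets higher and 4.56% lower, had an unadjusted p under 0.05. Probe sets of 1 gene share its transcripts and are not separate observations. REL 1 gave the highest signal in 4 of the 8 tested genes (Cd44, Selplg, Pecam1 and Itgb7) and the lowest in 2 (Itga4 and Itgb2), and REL 2 the highest in 1 (Itgb1) and the lowest in 2 (Itgal and Itgb7).

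The ligands of these integrins were read on the same arrays. Icam1, the ligand of LFA-1, had signals of 1990, 2883 and 2817 in WT, against 2650 and 2681 in REL, with both REL arrays inside the WT range (0.08, SE 0.24, limma adjusted p = 0.966). Vcam1, the ligand of VLA-4, was at 0.833 to 2.46 in WT, against 671 and 390 in REL, and was the 1 gene called (4.89, SE 0.52, limma adjusted p = 0.0388). Its WT signals were far under 23.1, so it passed the filter through the REL arrays and the size of its difference depends on the 16 added and on the probe set read. The difference was 1.61 with 1 added, where a different probe set was the brightest, 3.13 with 64 added and 2.03 with its 3 probe sets averaged (limma adjusted p = 0.732, 0.0521 and 0.439), and none of these was called. It was not called with no filter or with no trend either (limma adjusted p = 0.129 and 0.103). Without WT 1, 2 or 3 the difference stayed at 4.92, 4.86 and 4.91, but limma's adjusted p was 0.3 to 0.478, and over all alternatives it was 0.00465 to 0.939. Without REL 1 or REL 2 the brightest probe set was a different one that gave 0.20 and 2.03, while the one used here gave 4.51 and 5.27 and was called. The macrophage and monocyte markers were higher on the same REL arrays, and their part was not tested. Fn1, which encodes fibronectin, read 14.9 to 82.2 in WT, against 125 and 15.3 in REL, and Madcam1 was under the filter, at 1.95 to 32.5 in WT, against 3.90 and 5.63 in REL. Of the 16 ligands and counter-receptors with a named probe set 9 were tested, 4 above 0 and 5 below, with a median of −0.04.

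Of 18 other integrin subunits with a named probe set 10 were tested and 8 were too dim. They had a median of −0.27, 4 above 0 and 6 below, and none was called, while 1 (Itgb3) had an unadjusted p under 0.05. Itgb3, the beta chain of the vitronectin receptor, read 1965, 2660 and 2165 in WT, against 1292 and 1211 in REL, with both REL arrays far below every WT array (−0.84, SE 0.25, 95% interval −1.40 to −0.27, limma adjusted p = 0.425). Its partner Itgav ran from 6601 to 7627 in WT and was 6871 and 6725 in REL, inside the WT range (−0.09, SE 0.15), and its 4 tested probe sets were split, 2 on each side of 0. Itga5, the alpha chain of the fibronectin receptor with Itgb1, was dim, at 69.6, 42.0 and 29.5 in WT, against 17.8 and 7.30 in REL (−1.12, SE 0.50). Itga6, the alpha chain of laminin receptors, read 1274, 2524 and 532 in WT, against 2092 and 2172 in REL (0.82, SE 0.52), and its groups overlapped.

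The genes that turn integrins on or off from inside the cell had a median of 0.02 over 25 tested genes. Activators and inhibitors were counted together, 14 above 0 and 11 below, and none was called. Tln1, which encodes the talin that opens the integrin by binding its beta tail, read 2577, 2205 and 2773 in WT, against 2717 and 2325 in REL (0.00, SE 0.22), with 2 of its 3 probe sets above 0 and 1 below. Its co-activator Fermt3, kindlin-3, read 5165, 6507 and 7248 in WT, against 4322 and 5260 in REL (−0.39, SE 0.19, limma adjusted p = 0.646), and 3 of its 4 tested probe sets were below 0. The small GTPase gene Rap1b ran from 11228 to 13953 in WT and was 11411 and 12328 in REL (−0.04, SE 0.13). Rap2a, a relative of Rap1, lay lowest, with 210.2, 427 and 451 in WT, against 67.6 and 56.1 in REL (−2.21, SE 0.58, limma adjusted p = 0.372), and both of its probe sets were below 0. Dock8, a guanine exchange factor gene needed for lasting germinal centres, read 2708, 2101 and 1894 in WT, against 3432 and 3059 in REL (0.55, SE 0.23, adjusted p = 0.581), with its 3 tested probe sets above 0. Rapgef2, an exchange factor for Rap1 (0.57), and Sipa1, which turns Rap1 off (0.34), also had both REL arrays above every WT array, and Fermt2 (−0.40), which was dim, had both below.

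The adaptors between integrins and actin had a median of −0.03 over 18 tested genes, 7 above 0 and 11 below, with 0 at an unadjusted p under 0.05 and so 0 called by limma. Vasp, an actin polymerization factor, read 5998, 5809 and 5081 in WT, against 6879 and 7361 in REL (0.34, SE 0.15, limma adjusted p = 0.614), and the actin crosslinker Actn4 was at 0.30 (SE 0.30), both with REL arrays above every WT array. Ilk, the integrin-linked kinase gene, read 1652, 1629 and 2239 in WT, against 1359 and 1433 in REL (−0.38, SE 0.27), both below.

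In the list of selectins and of genes for selectin ligands, on PSGL-1 and other proteins, 7 were tested, 5 above 0 and 2 below, with a median of 0.48. B4galt1, a galactosyltransferase gene, read 1705, 1519 and 1148 in WT, against 2069 and 2968 in REL (0.78, SE 0.28, 95% interval 0.14 to 1.41, limma adjusted p = 0.49). St3gal6, a sialyltransferase gene, read 1019.9, 1286 and 929 in WT, against 1517 and 1525 in REL (0.50, SE 0.29), with 3 of its 4 tested probe sets above 0 and 1 below. Tpst1, a tyrosine sulfotransferase gene, differed by −0.10, or 0.07 with the arrays centred on their medians. In this list 0 genes were called by limma, and 1, B4galt1, had an unadjusted p under 0.05.

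Tetraspanins and other membrane partners of integrins had a median of 0.01 over 13 tested genes, 7 above 0 and 6 below, with 1 in each direction at an unadjusted p under 0.05 and 0 called by limma. Tspan32, a tetraspanin gene of blood cells, read 504, 517 and 472 in WT, against 1111 and 1171 in REL, a close pair well above the WT values (1.17, SE 0.35, 95% interval 0.38 to 1.96, limma adjusted p = 0.425), and both of its probe sets were above 0. Emb, which encodes embigin, a membrane protein related to basigin, read 372, 885 and 365 in WT, against 140.2 and 168 in REL (−1.59, SE 0.56, limma adjusted p = 0.479), and 1 of its 2 tested probe sets was above 0. Cd37, a tetraspanin gene of B cells, ran from 7499.9 to 8207 in WT and was 8410 and 8954 in REL (0.12, SE 0.13). Over all 6 lists, 82 genes were tested, 41 on each side of 0, and 1 (Vcam1) was called. With the arrays centred on their medians 57 of the 82 were above 0, as were 6 of the 8 adhesion genes and 7172 of the 12082 genes in place of 5216.

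**Figure D4:**
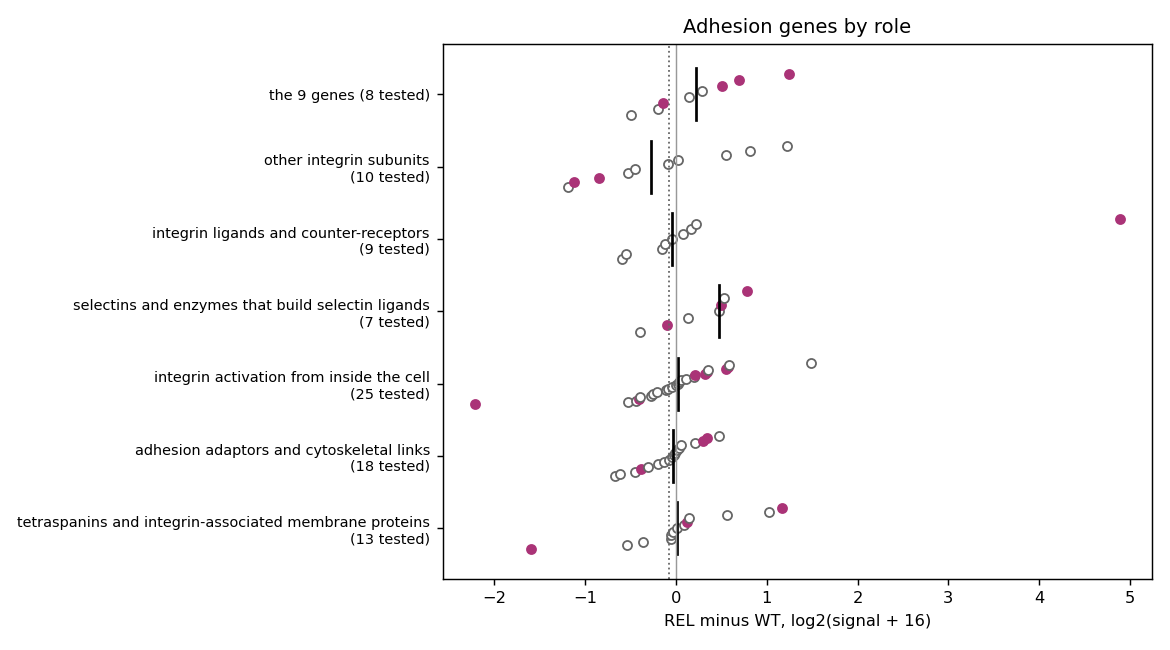
REL minus WT differences (log2(signal + 16)) of the 8 tested adhesion genes and of 6 lists of related genes, 1 point per gene, filled where the REL arrays all lie above or all below the WT arrays. Black bars are list medians and the dotted line is the median of all genes (−0.07), and the point at 4.89 is Vcam1.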

How the data were processed

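The authors deposited MAS5 signal intensities on a linear scale for 45101 probe sets and 5 arrays. The MAS5 name comes from the submitters' processing notes, which give it no version. Per the labels' protocols, a small amount of RNA was amplified by the Ovation method of NuGEN and the product was labelled with biotin. MAS5 scores each array by itself and subtracts mismatch probes, so dim signals vary widely on a log scale, and no detection calls were used here. Gene names came from the annotation of the platform. Of the probe sets 34945 carried 1 symbol (18193 genes, 64 control probe sets left out), 932 several and 9211 none. Of those with 1 symbol 34741 matched RefSeq through the Entrez identifier.

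Values were log2(signal + 16), with no further normalization. The lowest 40% of probe sets by mean were left out. The brightest probe set stood for a gene (12082 genes), and all 22200 probe sets with 1 symbol were fitted as well. Tests used limma 3.58.1 in R 4.3.3 with group as the one term, lmFit, trended eBayes and Benjamini-Hochberg adjustment over all genes or probe sets. Precision is limited by the number of arrays, and the median SD within a group was 0.35 in WT and 0.36 in REL. The limma steps were also run on simulated data with known changes, built from the gene means and WT spreads of these arrays. The filter and the choice of probe set were not part of that run.

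The genes examined and the gene lists were chosen with earlier results of these data known, so no p was adjusted over a list alone. The genes named were the members, Rel, per list up to 3 per direction with the smallest p among those whose groups did not overlap, a fixed set of ligands, activators and markers, and any gene called. Itgav, Itga6 and the markers Rgs13, Adgre1, Kdr, Tek, Emcn, Plvap, Gp5 and Gp6 were added after their values were seen. So were the markers Cldn5, Egfl7, Stab2, Ppbp, Prf1, Nkg7, Klre1, Zbtb46, Cd247, Sdc1 and Xbp1. List genes without a probe set of 1 symbol are not analysed here. Alternatives were quantile normalization, centring on medians, averaged probe sets, another pseudocount (1 or 64) or filter (none or 60%), no trend, a replicate block, and each array left out. Leaving out arrays with the probe sets of all arrays kept was added after seeing the data. Python 3.11.15, pandas 2.3.3, numpy 2.4.6 and matplotlib 3.10.9 were used for tables and plots.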

Additional observations from a re-analysis of the deposited data

How the results depend on the processing

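The counts of genes called over the whole array were unstable, while 0 of the 8 adhesion genes, and 0 of their 16 probe sets, were called under the 19 alternatives (18 for probe sets), with adjusted p from 0.303 upward. Against 1 gene higher and 0 lower, there were 0 higher with a pseudocount of 1 or 64, no filter, a 60% filter, averaged probe sets or no trend, 3 higher with median centring, and 1 lower with quantile normalization. Leaving out an array gave 0 to 3 higher and 0 to 5 lower, also with the probe sets of all arrays kept. For probe sets, median centring called 1 higher. Replicate numbers are shared by WT and REL but nothing says that they pair arrays, and deviations from the group means correlated at −0.04 and −0.02 in the pairs numbered 1 and 2. With the replicate block, which leaves 1 residual degree of freedom, 10 genes were higher and 8 lower, and 3 probe sets higher and 2 lower, none of them an adhesion gene. The block changed no call of an adhesion gene. The median of the adhesion genes (0.22) was 0.39 with median centring and 0.36 with averaged probe sets. With an array left out and the probe sets of all arrays kept it was 0.16 to 0.34. With the filter taken anew it was 0.06 to 0.34, but Itgam then passed without WT 3 or without REL 1 and was counted too. The count with both REL arrays below every WT array (1) was 0 with median centring and 1 to 3 with an array left out. The differences of Cd44 (0.53 to 0.88), Pecam1 (0.99 to 1.42) and Selplg (0.23 to 0.71) stayed above 0 under all 19 alternatives. Most of these could not turn them, since at the brightest probe sets of these genes no WT signal reached a REL signal. Leaving out an array, another pseudocount or the replicate block then keeps the sign. The filter and trend settings left the differences unchanged. Quantile normalization (0.72, 1.23 and 0.44) and median centring (0.87, 1.42 and 0.68) could turn them. For Cd44 averaged probe sets (0.57) could as well. Directions turned for Itgal (0.13 with averaged probe sets; −0.52 to 0.14 with an array left out), Itga4 (0.32 with averaged probe sets), Itgb1 (−0.37 without REL 2, 0.94 without REL 1), Itgb2 (0.03 with median centring) and Itgb7 (−0.35 without REL 1, 0.65 without REL 2). They also turned for the probe sets 1421194_at of Itga4 (0.28 with the replicate block and without WT 3, −0.52 without WT 2) and 1452545_a_at of Itgb1 (−0.14 without REL 2, 1.20 without REL 1). Of the other genes named, they turned for Tpst1 (0.07, median centring), Icam1 (−0.10 without WT 1, 0.17 without WT 2), Fn1 (−0.22 without WT 1, −0.86 without REL 1, 1.31 without REL 2), Tln1 (−0.09 without WT 2, −0.11 without REL 1) and Rap1b (0.06 with quantile normalization, 0.12 with median centring, 0.05 without WT 2, 0.01 without REL 1). Where no array was left out the cause was not tested.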
